A study of Homo sapiens with 20 samples.

Results

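RNA polymerase II (POL2) summits inside the bodies of protein-coding genes, away from gene starts and gene ends, are described here. Summits of 6 POL2 ChIP-seq libraries on chromosomes 1 to 22 and X were joined into a site when they lay 250 bp or less apart. A site was kept when it lay inside a protein-coding gene of GENCODE release 44 (GRCh38), more than 2 kb from every transcription start site (TSS) of any gene type and more than 2 kb from the 3′ end of that gene, and had a summit in at least 2 of the 6 libraries. These rules gave 2318 gene-body sites of 34426 POL2 sites in all, or of the 17443 POL2 sites seen in at least 2 libraries. The rule used position and presence in a list, not the score of a summit, the genotype or MYC.

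The cells were PC-3, an established prostate cancer line grown from a bone metastasis. Chromatin was cross-linked with formaldehyde, sonicated and precipitated with an antibody against POL2 or against the transcription factor c-Myc (MYC). Wild-type (WT) cells were compared with cells carrying a knockout of SLK, a serine/threonine kinase of the STE20 group that acts on the cytoskeleton and on cell adhesion (SLK-KO). The labels also call the knockout cells PSD10 and do not say what the name stands for or whether they are 1 clone, so SLK loss and the history of those cells cannot be told apart. No treatment or time course is given for either genotype. There were 3 POL2 and 3 MYC libraries of each genotype, and the study's title names SLK as a co-regulator of c-Myc. The IgG and Input libraries did not enter.

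POL2 gathers just downstream of gene starts, where it pauses, and then moves through the gene body as it makes RNA. A narrow peak inside a gene is therefore not the usual trace of elongation, which is spread out. The lists used here give 1 bp summits and no peak widths. Whether the sites are narrow peaks or high points of spread-out signal was not tested. Peaks away from known starts are found where POL2 is held or loaded at an intragenic enhancer, at a start that the annotation lacks, or at a pause within the gene. Active enhancers bind POL2 and give short RNAs in both directions, and in epithelial cancer cells they often carry motifs for AP-1 (the FOS and JUN family, which answers growth factor signals) and TEAD (the DNA-binding partners of YAP and TAZ in the Hippo pathway).

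The sequences of 9 gene-body sites show what these places look like. Each line gives 201 bases of GRCh38 on the plus strand, 100 bases to each side of the site's centre, in lower case. Capitals mark matches to the AP-1 motif TGANTCA or the TEAD motif GGAATG on either strand. DLGAP1, SYT16 and the first of the NRP1 windows were chosen as well-ranked sites with a summit in all 6 libraries, CAP2 and RFX2 as sites in the 3 SLK-KO libraries alone, ATP9A as the site in the 3 WT libraries alone, and TIMP2 and KSR2 for their MYC summits. The other NRP1 window, also in all 6 libraries, was chosen for its motif matches. Of the 17 windows read this way, 5 held an AP-1 or TEAD match, and windows with matches are over-represented among those printed.
NRP1, chr10:33273495-33273695, a later intron: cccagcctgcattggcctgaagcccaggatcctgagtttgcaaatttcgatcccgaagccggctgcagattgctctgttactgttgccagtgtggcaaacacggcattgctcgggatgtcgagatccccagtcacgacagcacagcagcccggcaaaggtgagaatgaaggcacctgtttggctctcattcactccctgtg
NRP1, chr10:33238020-33238220, a later intron, chosen for its matches: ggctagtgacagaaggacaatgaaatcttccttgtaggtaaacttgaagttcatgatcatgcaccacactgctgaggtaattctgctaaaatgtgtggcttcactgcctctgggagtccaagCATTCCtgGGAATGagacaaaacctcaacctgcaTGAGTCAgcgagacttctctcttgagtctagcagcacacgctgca
KSR2, chr12:117685474-117685674, a later intron: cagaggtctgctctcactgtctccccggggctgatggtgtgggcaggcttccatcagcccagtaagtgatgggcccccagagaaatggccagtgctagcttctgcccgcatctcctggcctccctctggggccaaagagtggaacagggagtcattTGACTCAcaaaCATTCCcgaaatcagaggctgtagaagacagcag
SYT16, chr14:61927658-61927858, the first intron: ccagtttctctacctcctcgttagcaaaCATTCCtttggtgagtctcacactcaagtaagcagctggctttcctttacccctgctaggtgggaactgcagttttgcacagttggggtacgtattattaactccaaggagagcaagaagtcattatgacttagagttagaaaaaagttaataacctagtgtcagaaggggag
CAP2, chr6:17418051-17418251, the first intron: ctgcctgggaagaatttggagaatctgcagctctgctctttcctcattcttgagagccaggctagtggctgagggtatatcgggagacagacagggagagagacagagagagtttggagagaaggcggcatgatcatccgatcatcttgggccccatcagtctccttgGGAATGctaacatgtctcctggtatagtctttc
DLGAP1, chr18:3624228-3624428, a later intron: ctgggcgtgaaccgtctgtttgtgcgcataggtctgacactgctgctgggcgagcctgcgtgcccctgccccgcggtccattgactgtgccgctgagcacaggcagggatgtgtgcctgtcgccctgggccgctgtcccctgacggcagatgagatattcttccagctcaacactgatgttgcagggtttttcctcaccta
RFX2, chr19:6065786-6065986, the first intron: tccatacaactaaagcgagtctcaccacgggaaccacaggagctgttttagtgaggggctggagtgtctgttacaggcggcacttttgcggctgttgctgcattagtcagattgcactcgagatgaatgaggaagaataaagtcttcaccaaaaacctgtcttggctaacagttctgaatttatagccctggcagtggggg
ATP9A, chr20:51666805-51667005, a later intron: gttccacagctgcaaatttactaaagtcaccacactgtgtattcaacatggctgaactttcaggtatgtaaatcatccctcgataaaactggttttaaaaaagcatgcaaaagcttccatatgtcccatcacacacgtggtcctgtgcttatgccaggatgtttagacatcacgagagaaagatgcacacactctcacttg
TIMP2, chr17:78862182-78862382, a later intron: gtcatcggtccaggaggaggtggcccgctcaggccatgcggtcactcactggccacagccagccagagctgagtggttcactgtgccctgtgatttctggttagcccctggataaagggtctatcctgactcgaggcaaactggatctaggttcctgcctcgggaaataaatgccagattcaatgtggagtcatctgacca

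The NRP1 window chosen for its matches held 1 AP-1 match and 2 TEAD matches, the latter on opposite strands and close together. The better ranked NRP1 window, at the site described below, held neither. KSR2 held 1 AP-1 and 1 TEAD match side by side. SYT16 and CAP2 held 1 TEAD match each, and DLGAP1, RFX2, ATP9A and TIMP2 held neither. A match is a run of letters and not a measured binding site. The DLGAP1 window, 61.2% G or C, stood at the GC-rich end of those printed and ATP9A, at 41.8%, at the other.

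The lists behind these sites differed in length. The WT POL2 lists held 17126, 5047 and 9925 summits (replicates 1 to 3) and the SLK-KO lists 19017, 15436 and 16298. Read depth is unknown, because the lists hold no counts, so a longer list cannot be told apart from a deeper or cleaner library. WT replicate 2 was the shortest, and WT replicate 1 was longer than SLK-KO replicates 2 and 3. Keratins of simple epithelium (KRT8, KRT18, KRT19) and the mesenchymal markers VIM and CD44 had POL2 at their promoters, with a summit at most 1 kb from a start, in all 6 libraries, CDH1 in 1 WT and 0 SLK-KO libraries, and KLK2, KLK3, the blood marker PTPRC, CHGA and COL1A2 in none. TMPRSS2 had one in all 6 libraries and EPCAM in 1 WT and 3 SLK-KO libraries. Of the markers checked for cell types other than epithelium, SYP (2 WT and 3 SLK-KO libraries) and COL1A1 (2 and 2) had one, besides VIM and CD44. What part other cells play in the lists was not tested. The targeted gene SLK had a promoter summit in 2 WT libraries and in all 3 SLK-KO libraries, which does not show whether its product was lost. Neither SLK nor MYC held a gene-body site.

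Gene-body sites were clustered. The summits joined into a site spanned a median of 122 bp, 926 bp at the widest, and 91.0% of sites spanned 300 bp or less. This span depends on the 250 bp joining distance and on the number of libraries. It is not the width of a peak. Another gene-body site lay within 1 kb of 20.1% of them, within 5 kb of 48.9% and within 20 kb of 60.2%. Most lay in 1 gene, but 118 lay in more than 1 protein-coding gene that fitted the rule and were given to the one whose start was nearest. Of 2192 sites on the chromosomes held in a RefSeq table of promoters (chromosome 8 is not in it), 23 (1.05%) lay within 1 kb of a RefSeq gene start. Ranks were similar on both sides of the TSS distance rule. The 331 sites inside coding genes that lay 1500 to 2000 bp from a TSS had a median rank percentile (explained below) of 67.1. The 198 gene-body sites 2000 to 2500 bp away had 63.9. Distance to the 3′ end was not screened for the 331, so the groups are not fully alike.

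Sites in gene bodies were found again less often than sites at promoters. Of 7349 POL2 sites with a gene-body position, 2318 (31.5%) were in at least 2 libraries and 84 (1.14%) in all 6. At the promoters of coding genes, meaning within 1 kb of a coding TSS, 68.1% were in at least 2 libraries and 16.6% in all 6. Intergenic sites, which lay outside every gene and more than 2 kb from every TSS and gene end, stood between these at 42.8% and 2.47%. These shares describe the pooled lists and were not tested.

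Gene-body summits ranked low within their lists. A summit's score is the authors' −log10 q-value, and a rank percentile of 0 is the best score of a list and 100 the lowest. The median rank percentile of gene-body sites was 59.8, 70.7 and 70.4 in WT replicates 1 to 3 and 57.8, 65.7 and 66.0 in SLK-KO replicates 1 to 3. Promoter sites had medians of 30.0, 40.8 and 38.6 in WT and 28.8, 33.5 and 33.0 in SLK-KO, so they ranked better in all 6 libraries. The difference averaged 30.9 percentile points and ranged from 28.9 to 33.1 (exact two-sided sign flips over 6 libraries, p = 0.031, the smallest possible, adjusted 0.0833 over 8 tests). Intergenic sites had medians of 54.9, 60.4 and 66.6 in WT and 52.7, 57.9 and 58.9 in SLK-KO. Gene-body sites stood 6.48 points below these on average, 3.76 to 10.3 points over the 6 libraries (exact sign flips, p = 0.031, adjusted 0.0833). That second difference turned over, to -2.45 points, when only gene starts and not every transcript start counted as a TSS, a setting that adds sites at inner starts. Between 0.40% and 1.50% of gene-body summits fell in the best 10% of a list and between 4.02% and 8.95% in the best 25%.

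**Figure D1:**
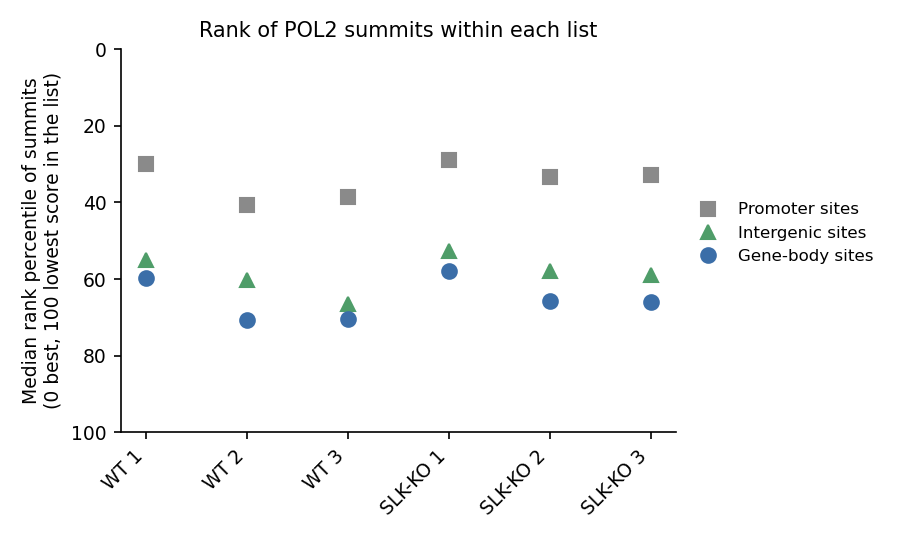
Median rank percentile of POL2 summits (y axis, 0 at the top is the best score in a list) at promoter, intergenic and gene-body sites in each of the 6 libraries (x axis, genotype and replicate). In all 6 libraries the gene-body median, 57.8 to 70.7, lies lowest and the promoter median, 28.8 to 40.8, highest.

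Rank and recurrence went together. The 1147 sites in 2 libraries had a median rank percentile of 75.2, the 586 in 3 libraries 66.0, the 335 in 4 libraries 56.6, the 166 in 5 libraries 44.4 and the 84 in all 6 libraries 27.2. The rank improved at each step, a description with no test.

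A few gene-body sites ranked better than the median promoter site in every list, some of them by little in WT. The best of those in all 6 libraries lay in a later intron of DLGAP1, which encodes a scaffold protein of the postsynaptic density (chr18:3624303-3624353, 830979 bp from the start of the gene). Its rank percentiles were 1.82, 7.19 and 4.46 in WT and 2.1, 4.39 and 3.06 in SLK-KO, among the best scores of every list. The site in a coding exon of KRT81, a hair keratin gene, followed (chr12:52287984-52288108) at 4.79, 12.7 and 6.44 in WT and 3.57, 3.4 and 3.51 in SLK-KO. KRT81 lies among near-identical keratin genes and the site also lies in a second passing gene, so its assignment is uncertain. A later intron of NRP1, the neuropilin co-receptor for semaphorins and VEGF, held the next (chr10:33273576-33273615), with 8.40, 26.8 and 33.8 in WT and 7.72, 5.27 and 6.44 in SLK-KO. An exon of SH3TC2, whose product works in endocytic recycling, held another outside its coding sequence (chr5:149002060-149002134), with 16.2, 23.5 and 13.8 in WT and 2.55, 5.07 and 4.31 in SLK-KO. The fifth lay in the first intron of SYT16, a gene of the synaptotagmin family (chr14:61927702-61927815), with 12.6, 39.0 and 16.0 in WT and 6.32, 7.41 and 5.80 in SLK-KO. For KRT81, NRP1, SH3TC2 and SYT16 the 3 SLK-KO ranks were better than the 3 WT ranks without overlap, whereas those of DLGAP1 overlapped. Of the 84 gene-body sites in all 6 libraries, 19 (22.6%) had this order and 2 (2.38%) the opposite one, beside 24.8% and 0.797% of the 3011 POL2 sites of any position in all 6, shares near each other. Ranks from lists of unlike length do not show a change in binding.

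Hosts of gene-body sites were mostly genes with POL2 at their own promoter. The 2318 sites lay in 1170 of 16423 protein-coding genes that had any sequence where the rule could be met, or 7.12%. A POL2 promoter site was present in 943 hosts (80.6%), beside 52.3% of the 16423 genes. Counted by sequence, 1989 sites (85.8%) lay in genes with a POL2 promoter site, which make up 50.4% of the eligible sequence. The density was 3.63 sites per Mb there and 0.609 per Mb in the other genes, a ratio of 5.96. Of the hosts, 732 held 1 site, and 97 held 5 or more and together 737 sites (31.8%). Hosts had more eligible sequence than other genes, with a median of 71.65 kb beside 23.8 kb over the 16423 genes. Shares of genes that were hosts are not adjusted for this. Across the 1170 hosts alone the number of sites and the eligible bases had a Spearman correlation of 0.055. It is a description across genes, which are not replicates.

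Sites gathered toward the start of the gene beyond the excluded 2 kb. The median distance from the start of the host was 28366 bp, and 40.8% of sites lay within 20 kb of it, beside 16.8% of the eligible sequence. In genes with a POL2 promoter site the density was 13.6 sites per Mb between 2 and 5 kb from the start, 10.1 between 5 and 10 kb, 6.46 between 10 and 20 kb, 3.64 between 20 and 50 kb, 2.78 between 50 and 100 kb, 2.31 between 100 and 200 kb and 1.36 beyond 200 kb. In genes without a POL2 promoter site it was 1.22 per Mb in the nearest bin and 0.377 in the farthest. Of all gene-body sites, 29.9% lay in the first intron of the canonical transcript (Wilson 95% interval 28.0 to 31.7), beside 20.1% of the eligible sequence. Later introns held 48.0% of sites and 63.1% of the sequence. Coding exons held 2.42% and 1.52%, other exons 4.92% and 2.20%, and stretches outside the canonical transcript 14.8% and 13.1%. Here and below, intervals cover counting error only.

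**Figure D2:**
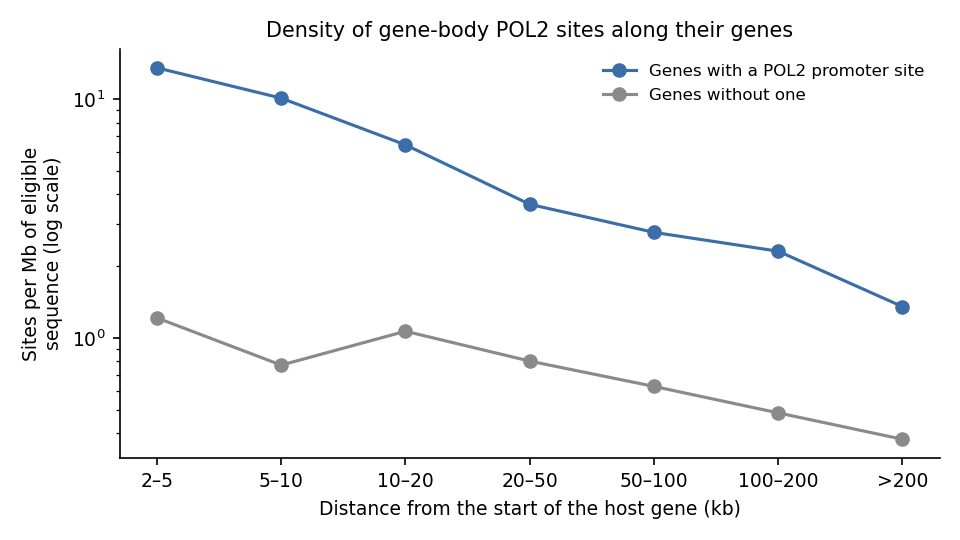
Gene-body POL2 sites per Mb of eligible sequence (y axis, log scale) by distance from the start of the host gene in kb (x axis), for genes with and without a POL2 promoter site. The upper line runs from 13.6 to 1.36 sites per Mb and the lower from 1.22 to 0.377.

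Density also differed between chromosomes. Chromosomes 20 (127 sites, 5.39 per Mb of eligible sequence), 21 (57 sites, 4.88 per Mb) and 19 (97 sites, 4.62 per Mb) stood highest, and chromosomes X (42 sites, 0.903 per Mb) and 4 (61 sites, 0.95 per Mb) lowest, beside 2.13 per Mb overall. Copy number of the line was not measured here and its part in these densities was not tested.

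NRP1 carried more gene-body sites than any other gene, 28, between 5481 and 148460 bp from its start. Its numbers of sites with a summit were 16, 6 and 13 in WT and 13, 19 and 13 in SLK-KO, and the genotypes overlapped. Besides the site named above, 2 others in NRP1 introns were in all 6 libraries. BCAR3, an adaptor of integrin and growth factor signalling that binds p130Cas, followed with 25 sites, at 12, 4 and 8 in WT and 17, 16 and 16 in SLK-KO, with no overlap. Every SLK-KO list stood above every WT list in 20.3% of coding genes with 5 or more POL2 sites at any position. ASPH, an aspartyl hydroxylase of the endoplasmic reticulum, held 21 (13, 2 and 7 in WT and 14, 8 and 11 in SLK-KO). RIN2, which acts on the small GTPase RAB5, held 15 (7, 5 and 5 in WT and 11, 9 and 9 in SLK-KO). The next hosts were ARHGAP29, a GTPase-activating protein (13 sites), FEZ2 (13 sites, 7 of them in more than 1 passing gene), TXNRD1, the cytosolic thioredoxin reductase (13), CAPN2, a calpain protease that cuts adhesion proteins (12), NPAS2, a circadian transcription factor (12), and MYOF, a ferlin of membrane repair (11). All 10 had a promoter summit in all 6 libraries, except NPAS2 with 1 WT and 2 SLK-KO libraries. The median rank percentile of the sites was 44.8 in MYOF and 86.0 in NPAS2, the range of the 10.

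Gene lists of pathways known from PC-3 and other epithelial cancer cells were used, chosen with earlier results of these data known. Their shares are thus a description and give no independent support. Here the background is the 7.12% of eligible genes that were hosts. Among focal adhesion and actin genes, 19 of 33 (57.6%) were hosts, with 74 sites and 21.3 sites per Mb, beside 2.13 per Mb over all genes. CAPN2 held 12 of them, and LAMB3 and PXN 9 each. For LAMB3, a chain of the epithelial laminin, sites with a summit numbered 3, 0 and 0 in WT and 6, 5 and 5 in SLK-KO, with no overlap, an order to be read against the 20.3% given above. For PXN, the adhesion adaptor paxillin, they numbered 4, 0 and 2 in WT and 7, 6 and 6 in SLK-KO, also with no overlap and against the same background. MYH9, the heavy chain of non-muscle myosin, held 7 sites (2, 2 and 4 in WT and 4, 4 and 2 in SLK-KO) and overlapped.

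YAP and TAZ target genes were hosts in 11 of 20 cases (55.0%), with 44 sites and 12.6 per Mb. MYOF held 11 sites, ASAP1, a GTPase-activating protein for ARF, 6, and TEAD1, which encodes a TEAD factor itself, 5. TEAD1 sites with a summit numbered 4, 1 and 4 in WT and 3, 4 and 3 in SLK-KO, with no difference beyond their spread. EGFR and RAS pathway genes were hosts in 8 of 23 cases (34.8%), with 24 sites and 15.9 per Mb. EGFR held 5 sites, seen 2, 1 and 1 times in WT and 5, 4 and 5 times in SLK-KO, with no overlap, again beside that 20.3%. MET, the receptor of hepatocyte growth factor, held 3 sites (2, 1 and 2 in WT and 2, 2 and 2 in SLK-KO).

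AP-1 and immediate early genes, which are short, were hosts in 5 of 12 cases (41.7%). They held 7 sites, 3 of them in ETS1, and 33.1 per Mb. Growth and metabolism genes, many of them known MYC targets, were hosts in 7 of 22 cases (31.8%). They held 10 sites and 11.8 per Mb, with no gene above 2 sites. The lists also differed in how many of their genes had POL2 at the promoter. Among genes with a POL2 promoter site, 11% of all genes were hosts, beside 66.7% of YAP and TAZ targets (10 of 15), 64.3% of focal adhesion and actin genes (18 of 28), 41.7% of AP-1 and immediate early genes (5 of 12), 36.8% of EGFR and RAS pathway genes (7 of 19) and 33.3% of growth and metabolism genes (7 of 21).

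AP-1 motifs were more frequent at gene-body sites than in the sequence beside them. The AP-1 motif TGANTCA lay within 100 bp of the centre at 314 sites, 13.5% (Wilson 95% interval 12.2 to 15), against 6.64% and 6.21% of windows of equal length moved by 2 kb to lower and to higher coordinates. Promoter sites held it in 3.4% and intergenic sites in 15.2% (13.4 to 17.2), so gene-body sites resembled intergenic sites in this letter pattern, with overlapping intervals. The share was 13.2%, 14.5% and 13.2% over the sites present in each WT list and 15.1%, 15% and 14.8% in each SLK-KO list. Sites in 2 libraries held it in 11.6% and sites in all 6 in 15.5% (9.27 to 24.7).

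AP-1 matches did not peak at the centre itself, on average over both sides. AP-1 matches averaged 0.787 per kb within 100 bp of the centre, 0.986 per kb between 100 and 200 bp, 0.669 per kb between 200 and 300 bp, and 0.344 per kb between 1 and 2 kb away. On both sides the bin from 100 to 200 bp held the maximum, with 232 and 225 matches. AP-1 matches were thus densest a short way to either side of the POL2 centre. The GC box (GGGCGG) had the same shape at a lower level. Its matches averaged 0.421 per kb within 100 bp, 0.496 between 100 and 200 bp and 0.294 between 1 and 2 kb. TEAD matches (GGAATG) were at 14.2% of sites (12.9 to 15.7), against 11.3% and 10.6% in the moved windows, 7.03% at promoter sites and 15.8% at intergenic sites. Unlike AP-1, they were densest nearest the centre on average, at 0.826 per kb within 100 bp, 0.805 between 100 and 200 bp, 0.705 between 200 and 300 bp and 0.596 between 1 and 2 kb. An AP-1 or a TEAD match was present at 596 sites (25.7%), and both at 48 (2.07%).

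**Figure D3:**
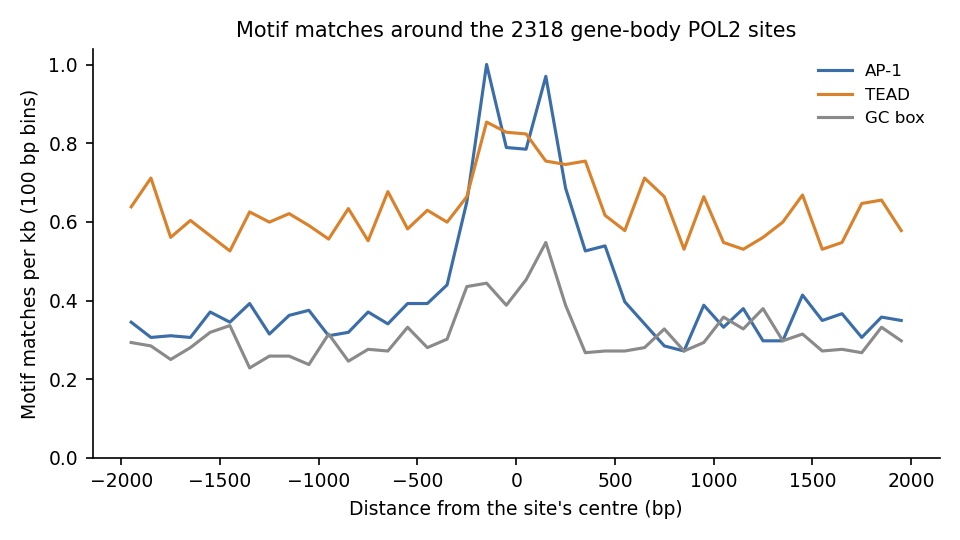
Matches per kb to the AP-1, TEAD and GC box motifs (y axis, 100 bp bins) by distance in bp from the centre of the 2318 gene-body POL2 sites (x axis). AP-1 matches reach their maximum 100 to 200 bp from the centre on both sides, at 0.986 per kb on average, and lie near 0.344 per kb beyond 1 kb.

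Other motifs set gene-body sites apart from promoters. The GC box GGGCGG, which SP and KLF factors bind, was at 6.47% of gene-body sites and 50.8% of promoter sites, and the ETS motif CCGGAAG at 1.16% and 12.3%. Intergenic sites were also below promoters, with the GC box at 12.9% and the ETS motif at 2.47%. In the moved windows the GC box was at 5.09% and 4.53% and the ETS motif at 0.647% and 0.647%, below the gene-body shares. The C/EBP motif TTGCNNAA was at 11% of gene-body sites (9.75 to 12.3), against 8.89% and 9.62% in the moved windows, whose intervals overlap that range. RUNX (TGTGGTT) at 4.92%, forkhead (TGTTTAC) at 3.32%, steroid receptor (ACANNNTGT) at 6.04% and grainyhead (AACNGGTT) at 1.29% stood near their moved windows (RUNX 3.93% and 4.23%, forkhead 2.63% and 2.67%, steroid receptor 5.44% and 5.09%, grainyhead 1.21% and 1.77%). The E-box CACGTG, which MYC with MAX can bind, was at 2.63% (2.05 to 3.37) of gene-body sites, against 2.72% and 2.24% in the moved windows and 4.54% of promoter sites. The core of the CTCF motif was at 1 gene-body site (0.043%). No motif searched contains another, and both strands were read for each. Mean G and C content was 48.0% at gene-body sites, 45.1% and 44.8% in the moved windows, 65.7% at promoter sites and 50.8% at intergenic sites. Some windows were over 50% G and C and had an observed to expected CpG ratio above 0.6, as CpG islands do. They made up 4.66% of gene-body sites, 14.2% of intergenic sites and 79.8% of promoter sites.

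The share of all summits that lay in gene bodies was compared between genotypes by position alone, with no demand for a second library. It was 15.8%, 8.35% and 9.83% in WT and 17.2%, 14.2% and 13.8% in SLK-KO, means of 11.3% ± 3.95 and 15.1% ± 1.83 (SD, n = 3 each). These ranges overlapped (difference 3.72 points, exact permutation p = 0.3, adjusted 0.343). The difference was 5.96 points with WT replicate 1 left out and 2.23 points with WT replicate 2 left out.

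Counts of sites with a summit describe the lists but give no independent support, because presence in a list is what the rule used. Through SLK-KO lists alone 760 gene-body sites (32.8%) met it, and through WT lists alone 89 (3.84%). Among the 17443 POL2 sites of any position in at least 2 libraries, 2281 were in 2 and 1027 in 3 SLK-KO libraries with no WT library. In 2 and 3 WT libraries with no SLK-KO library there were 435 and 37. Sites with a summit numbered 1280, 249 and 669 in WT and 1664, 1399 and 1465 in SLK-KO, or 733 ± 518 and 1509 ± 138 (SD, n = 3 each), and no WT library reached the lowest SLK-KO library. On the log2 scale the means were 9.22 ± 1.19 and 10.56 ± 0.13 (SD, n = 3 each), a difference of 1.33. Leaving out WT replicate 1 gave 1.88, and leaving out WT replicate 2 gave 0.70. The exact two-sided permutation p was 0.1, the smallest that 3 against 3 libraries allow, and 0.133 after adjustment over 8 tests, so the difference did not pass. Promoter sites with a summit numbered 8639, 3319 and 6385 in WT and 9041, 8451 and 8837 in SLK-KO. Per 100 promoter sites of the same list there were 14.8, 7.50 and 10.5 gene-body sites in WT and 18.4, 16.6 and 16.6 in SLK-KO, a log2 difference of 0.71 without overlap (exact permutation p = 0.1, adjusted 0.133). It came to 0.95 if WT replicate 1 was dropped and 0.46 if WT replicate 2 was.

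With lists of equal length the direction of these differences turned over. Where each list was reduced to its 5047 best-scored summits, 223 gene-body sites remained in at least 2 libraries. Their numbers were 129, 137 and 135 in WT and 128, 126 and 117 in SLK-KO, with every WT list now above every SLK-KO list (difference -0.11 on the log2 scale, exact permutation p = 0.1). Per 100 promoter sites there were 3.2, 4.43 and 3.53 in WT and 3.19, 3.17 and 2.91 in SLK-KO (log2 difference -0.26, exact permutation p = 0.1). Presence in the shortened lists is what picked these sites, so these counts too give no independent support. The separation was narrow, at 129 against 128 sites and 3.2 against 3.19 per 100 promoter sites. The gene-body share of summits was 3.17%, 8.37% and 4.40% in WT and 3.28%, 3.28% and 3.13% in SLK-KO, averages of 5.31% ± 2.72 and 3.23% ± 0.090 (SD over 3 libraries; exact permutation p = 0.3). The highest value was that of WT replicate 2, whose list was not shortened, and WT replicate 1 lay below 2 of the SLK-KO lists. Set against intergenic sites, gene-body sites in the full lists numbered 163, 161 and 168 per 100 in WT and 157, 155 and 155 in SLK-KO. These values lay close together, with every WT list above every SLK-KO list, opposite to the promoter ratio in the full lists. The ratio to intergenic sites was not tested. Median ranks of gene-body sites differed between genotypes by -3.78 points, and the libraries overlapped (exact permutation p = 0.5, adjusted 0.5). That value was -7.35 when WT replicate 1 was left out and -1.09 when SLK-KO replicate 1 was.

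**Figure D4:**
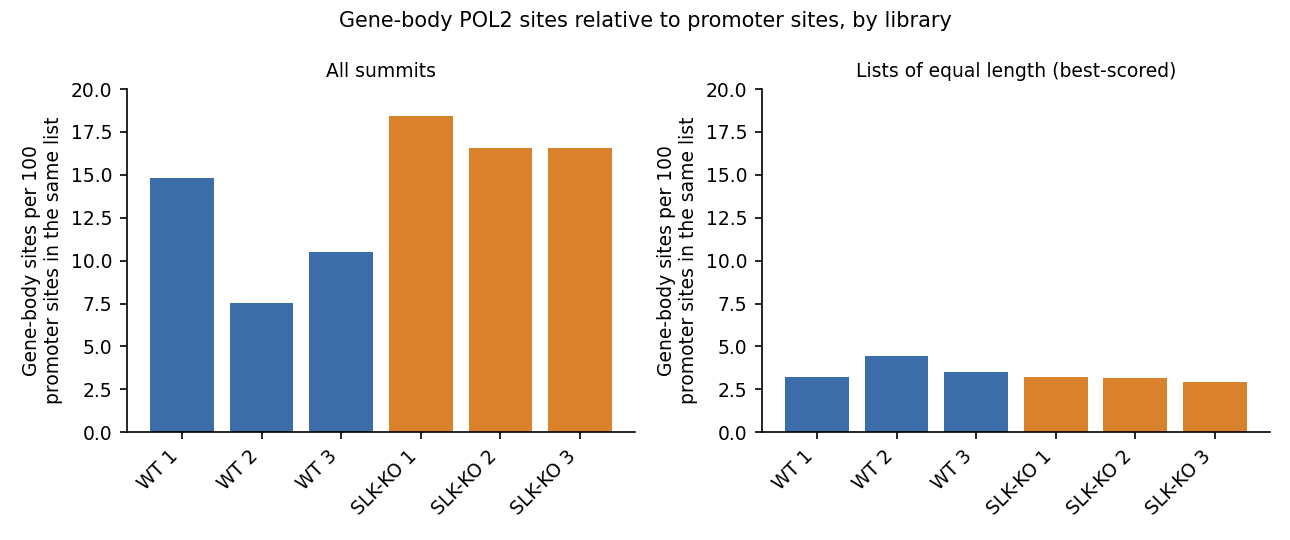
Gene-body POL2 sites per 100 promoter sites of the same list (y axis) in each library (x axis, genotype and replicate), for all summits on the left and for the 5047 best-scored summits of each list on the right. The 3 SLK-KO bars stand above the 3 WT bars on the left, at 16.6 to 18.4, and below them on the right, at 2.91 to 3.19.

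By library, 1469 gene-body sites (63.4%) had a summit in at least 1 list of each genotype. Of the 528 sites in at least 2 WT lists, 83.1% were also in an SLK-KO list. Of the 1602 in at least 2 SLK-KO lists, 52.6% were also in a WT list. POL2 sites of any position were uneven in the same direction. Of these 17443 sites, 2281 had 2 and 1027 had 3 SLK-KO lists but lacked every WT list. Conversely, 435 had 2 and 37 had 3 WT lists but lacked every SLK-KO list. The unevenness is thus not special to gene-body sites. In the 3 SLK-KO libraries and no WT library there were 227 sites, 9.79% of gene-body sites (Wilson 95% interval 8.65 to 11.1), beside 5.89% of all POL2 sites in at least 2 libraries, 3.96% of promoter sites and 11.5% of intergenic sites (9.86 to 13.3). In the 3 WT libraries and no SLK-KO library there was 1 gene-body site, beside 0.212% of all such POL2 sites. With lists of equal length, 6 of 223 gene-body sites (2.69%, 1.24 to 5.74) were in SLK-KO alone and 3 (1.35%) in WT alone, beside 3.86% and 1.65% of all POL2 sites. In those lists the share in SLK-KO alone was therefore not above the background. The number in SLK-KO alone was 431 without WT replicate 1, and 355, 454 and 405 without SLK-KO replicates 1, 2 and 3. Without WT replicate 2, which misses most sites, 206 sites and not 84 were in all the remaining libraries.

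**Figure D5:**
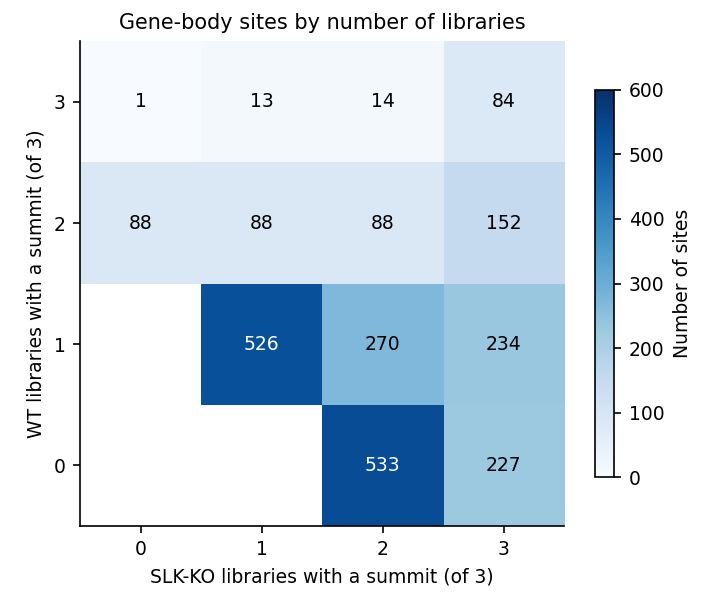
Number of gene-body POL2 sites (figure in each square, colour scale on the right) by how many of the 3 SLK-KO libraries (x axis) and of the 3 WT libraries (y axis) held a summit. There are 227 sites at 3 SLK-KO and 0 WT libraries, 1 at 3 WT and 0 SLK-KO libraries and 84 in all 6, and empty squares have fewer than 2 libraries.

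Sites in SLK-KO alone were weaker than shared sites, and part of them lay close to a WT summit. Their median rank percentile in the SLK-KO lists was 60.4, beside 49.5 for the 386 sites in 3 SLK-KO and 1 or 2 WT libraries and 23.1 for the 84 in all 6. A WT POL2 summit lay within 500 bp of 26 of the 227, within 1 kb of 43 (18.9%) and more than 5 kb away from 130 (57.3%). The best ranked was in a later intron of LMNTD1, a lamin tail domain gene (chr12:25489605-25489625), at 12.9, 12.9 and 18.9 in SLK-KO replicates 1 to 3, with a WT summit 255 bp away. The site in the first intron of CAP2, an actin-binding protein (chr6:17418129-17418173), at 18, 29.4 and 16.8, had a WT summit 287 bp away, and the site in RPSA, a ribosomal protein gene with many processed copies (chr3:39414040-39414440), at 25.1, 38.4 and 30.4, had one 449 bp away. For these 3 the absence from WT rests on the 250 bp joining distance. RFX2, a transcription factor of cilia genes (chr19:6065865-6065907), had ranks of 13.3, 27.4 and 44.2 with the nearest WT summit 44916 bp away, and CCDC192 (chr5:127840979-127841101) had 28.1, 33.2 and 27.9 with the nearest at 100633 bp. The site in WT alone lay in a later intron of ATP9A, a phospholipid flippase (chr20:51666817-51666994), at 22.6, 90.7 and 40.2 in WT, 30428 bp from the nearest SLK-KO summit. The AP-1 motif was at 18.5% of the sites in SLK-KO alone (14 to 24.1) and TEAD at 19.4% (14.8 to 25), and the lower ends of both intervals lie inside the intervals of all gene-body sites.

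Among the 97 hosts with 5 or more sites, every SLK-KO list held more of the sites than every WT list in 23 (23.7%), beside 20.3% of the 375 coding genes with 5 or more POL2 sites at any position, and no host showed the opposite order. The share is near that background. In 3 hosts no WT library held any of the sites, and these were chosen after their values were seen. Their sites met the rule through SLK-KO lists alone, so the 0 in WT is a description of values that the rule used. CDH11, a mesenchymal cadherin, held 7 sites with 5, 6 and 6 in SLK-KO, CBLB, a ubiquitin ligase that turns off EGFR and other receptors, held 8 with 6, 5 and 5, and FSTL1, a secreted glycoprotein, held 6 with 5, 2 and 6. Their promoters held a POL2 summit in WT too, in 3 of 3 libraries for CDH11 and FSTL1 and in 2 of 3 for CBLB, and in 3 of 3 SLK-KO libraries for all 3 genes. At the other end, also singled out after its values were seen, RIPK4 held 5 sites with 3, 1 and 4 in WT and 1, 0 and 1 in SLK-KO.

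MYC was rare at gene-body sites. Within 250 bp of the 2318 sites a MYC summit lay at 3, 1 and 3 sites in WT and 23, 28 and 19 in SLK-KO, or 0.101% ± 0.050 and 1.01% ± 0.19 (SD, n = 3 each), with no overlap (difference 0.906 points, exact permutation p = 0.1, adjusted 0.133). With the sites moved by 10 kb, 0, 1 and 0 lay near MYC in WT and 6, 6 and 5 in SLK-KO. The set of sites leans toward SLK-KO, as POL2 sites of any position do. Of the gene-body sites, 760 met the rule through SLK-KO POL2 lists alone and 89 through WT lists alone. What part this lean plays in the genotype difference was not tested. The MYC lists themselves held 365, 201 and 267 summits in WT and 1218, 1420 and 988 in SLK-KO, and as a share of each list the summits at gene-body sites were 0.82%, 0.50% and 1.12% in WT and 1.81%, 1.97% and 1.92% in SLK-KO. At promoter sites MYC lay at 220, 111 and 153 sites in WT and 648, 754 and 543 in SLK-KO. The gene-body share was lower than the promoter share in all 6 MYC libraries, with a difference of -3.25 points on average and as large as -5.88 in SLK-KO replicate 2 (exact sign flips, p = 0.031, adjusted 0.0833).

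Over all 6 MYC libraries, 51 gene-body sites (2.20%, 1.68 to 2.88) had MYC in at least 1 library, beside 11.7% of promoter sites and 3.82% of intergenic sites. These 51 were in 3.75 POL2 libraries on average with a median rank percentile of 47.7, the others in 2.88 with 63.9. TIMP2, an inhibitor of matrix metalloproteinases, held the one with MYC in most libraries, 3 WT and 2 SLK-KO (chr17:78862238-78862326), and its POL2 summit was in all 6 libraries at 25.1, 54.6 and 34.2 in WT and 15.1, 13.5 and 26.8 in SLK-KO. KLHL31, a BTB-kelch gene (coding exon, chr6:53651922-53652098), and DENND3, an activator of a RAB GTPase (a later intron), held sites with MYC in 2 WT and 2 SLK-KO libraries. In KSR2, a scaffold of the RAF and MEK cascade, and in SH3TC2, MYC was at a site in 3 SLK-KO and 0 WT libraries. At KSR2 (chr12:117685543-117685605) POL2 was present in 2 WT and 3 SLK-KO lists, and at SH3TC2 (chr5:148966156-148966166) in 0 WT and 3 SLK-KO lists. The E-box CACGTG was in the 201 base window of this SH3TC2 site and not in those of TIMP2, KLHL31 and KSR2.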

How the data were processed

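POL2 and MYC ChIP-seq summit lists of WT and SLK-KO PC-3 cells (3 libraries per antibody and genotype) were used. Paired-end reads of 50 bp went through nf-core/chipseq 2.1.0 on GRCh38.p14, per the labels. The submitters' processing notes name BWA 0.7.18-r1243, Picard 3.2.0 and MACS3 3.0.1. The control library and the caller's options are not given in the sources used here. The deposited score of each 1 bp summit was read as −log10 of a q-value given within its library, since the lowest score, 1.30, is that of a q-value of 0.05. The score ranked or filtered summits within a list only. The lists hold no counts, so depth is unknown.

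Sites were built as described above. Eligible sequence was counted every 100 bp. Tests took each library as 1 value, by exact two-sided permutation (20 relabellings) or sign flips (64), with Benjamini-Hochberg adjustment over 8 tests. The labels call the replicates biological and name no separate cultures, so p-values measure the spread between these libraries. Sites, the 6 gene lists and the 11 motifs (CTCF included, searched as its core) were chosen with earlier results of these data known. Some markers and 1 of the gene lists are not reported here. Sites named were up to 5 with the best median rank among those in all 6, in SLK-KO alone and in WT alone, and up to 5 with MYC in most libraries, besides the 10 hosts with most sites, genes of the lists, SLK and MYC. Alternatives covered joining distance, distance to gene ends, scores, list length, annotation, recurrence, windows, leaving out each library and a replicate block. Site building, motif search and tests were checked on simulated data. Python 3.11.15, numpy 2.4.6, scipy 1.17.1 and matplotlib 3.10.9 were used.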

Additional observations from a re-analysis of the deposited data

How the results depend on the processing

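Of 114 repeats of the 8 tests under other settings, 109 kept their direction and 5 turned over. No adjusted p could fall below 0.05 in this design, so the settings move values and not calls. With lists of equal length the SLK-KO minus WT difference became -0.11 for the log2 number of gene-body sites, -2.08 points for the gene-body share, -0.26 for the log2 ratio to promoter sites and 4.54 points for the median rank percentile. With gene starts alone as TSS the gene-body minus intergenic rank became -2.45 points. The number of gene-body sites was 1390 at 5 kb from starts and ends, 1050 at scores of 5 or more, 223 with equal lists, 4293 with gene starts alone and 1171 in 3 libraries. Sites in SLK-KO alone numbered 143 with 100 bp joining, 138 at 5 kb, 125 at scores of 5 or more, 6 with equal lists and 350 with gene starts alone, and 229 to 454 without 1 library. Those in WT alone numbered 2, 1, 0, 3 and 6 in the same settings and 5 to 57 without 1 library, and those in all libraries 48, 55, 47, 38 and 348, and 87 to 206. AP-1 and TEAD matches lay within 50 bp of the centre at 5.91% and 7.03% of sites, and within 100 bp at 15.5% and 16.7% of sites in all 6 libraries. Apart from list length, window size and the number of libraries, which these settings fix, the cause was not tested.

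With same-numbered libraries as a replicate block, the SLK-KO minus WT differences stayed at 1.33, 3.72 points, 0.71, -3.78 points and 0.906 points for number, share, log2 ratio, median rank and MYC, and sign flips over the 3 pairs gave 0.25 throughout, their lowest possible p. Deviations of same-numbered libraries correlated at 0.123, -0.0023 and 0.0561, and those of libraries with unlike numbers at -0.107 to 0.0494. Values this small, from presence at sites picked by presence, cannot show whether the numbers pair the libraries. Depth is unknown, and a site missing from a list was not detectable there rather than absent. The promoter window of 500 bp for the log2 ratio was added after seeing the data.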
